A study of Homo sapiens with 6 samples.

Results

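Genes of cholesterol and fatty acid synthesis were examined in NK-92MI cells, a human natural killer cell line that carries an introduced IL-2 gene, after the transfer of mitochondria from another cell line. The group was a named list of 37 genes, and its values came from every array probe set whose annotation names one listed gene and no other. These were 669 probe sets for 36 genes, out of 259224 probe sets for 22260 genes in the whole series. The remaining gene, FADS1, which encodes the delta-5 desaturase, had 25 probe sets that all also named the microRNA gene MIR1908, and it was left out.

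The mitochondrial transfer group held 3 arrays of NK-92MI cells that had received 5 µg of mitochondria isolated from WRL-68 cells, which the study describes as normal hepatic cells. The control group held 3 arrays of NK-92MI cells without that transfer, and the labels do not say whether these cells were also spun. All cells grew in medium with fetal bovine and horse serum, both of which contain lipoprotein lipids. The labels do not say whether replicates were separate cultures, so the p-values measure only the spread between these arrays, which may be technical. How long after the transfer RNA was taken is not given in the sources used here. The cells are 1 established line, and the RNA is bulk RNA, in which fewer cells of a type and less RNA per cell cannot be told apart.

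Animal cells build cholesterol from acetyl-CoA through mevalonate, isoprenoid phosphates, squalene and lanosterol, and they build saturated and unsaturated fatty acids from acetyl-CoA through malonyl-CoA. Both arms are controlled by the SREBP transcription factors, which are made as inactive precursors in the endoplasmic reticulum. When membrane sterol is low, the escort protein SCAP carries the precursors to the Golgi for cleavage, and when sterol is high, the INSIG proteins hold SCAP back. Activated NK cells are known to use SREBP for their metabolic programme.

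The level of a gene was taken as the median log2 intensity of its probe sets on each array. By this measure 33 of the 36 genes had a mean above 5.55, the background set by the 95th percentile of 367 olfactory receptor genes. The other 3 were ACACB, ACSS2 and ABCA1, whose median over probe sets lay under it. Single probe sets of these genes were brighter, with 9 of 50 for ACACB, 7 of 30 for ACSS2 and 6 of 41 for ABCA1 above 6.15, the background of single probe sets, so that a low median does not show that the gene was silent. None of the 36 genes passed the limma test after Benjamini-Hochberg adjustment over all genes at a threshold of 0.05, in either direction. Over all genes, 0.0629% were called higher and 0.00898% lower after transfer. At an unadjusted p under 0.05 in limma, 5 of the 36 genes were higher and 7 lower, against 5.27% and 8.14% of all genes. Variance moderation with trend and robust options, a setting of the same tool, called INSIG1, SCD, FASN and LSS, as given below. That setting also called more genes of the whole series than the main settings did, as counted in the section on processing. The methods' t-test called none after adjustment.

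Differences were negative for 26 and positive for 10 of the 36 genes, with a median of −0.18 on the log2 scale. Over all genes 55.2% were negative and 44.8% positive, with a median of −0.04. Among genes above background, 65.5% had a negative difference with a median of −0.10, and 24 of the 33 listed genes above background did so, with a median of −0.17. The 3 transfer arrays lay wholly above the 3 control arrays for 4 of the 36 genes and wholly below them for 9, against 7.49% and 13.3% of all genes. Among the 33 listed genes above background these numbers were 4 and 8, against 6.41% and 20.1% of all genes above background. The share of 24.2% that lay wholly below thus stood near that of other genes of such brightness. The mostly negative direction depended on the summary of probe sets. Read from the brightest probe set, 21 of the 36 differences were positive and 15 negative, with a median of 0.042, beside 0.005 over all genes. On probe sets above background 15 were positive and 21 negative, with a median of −0.086, beside −0.044 over all genes.

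**Figure D1:**
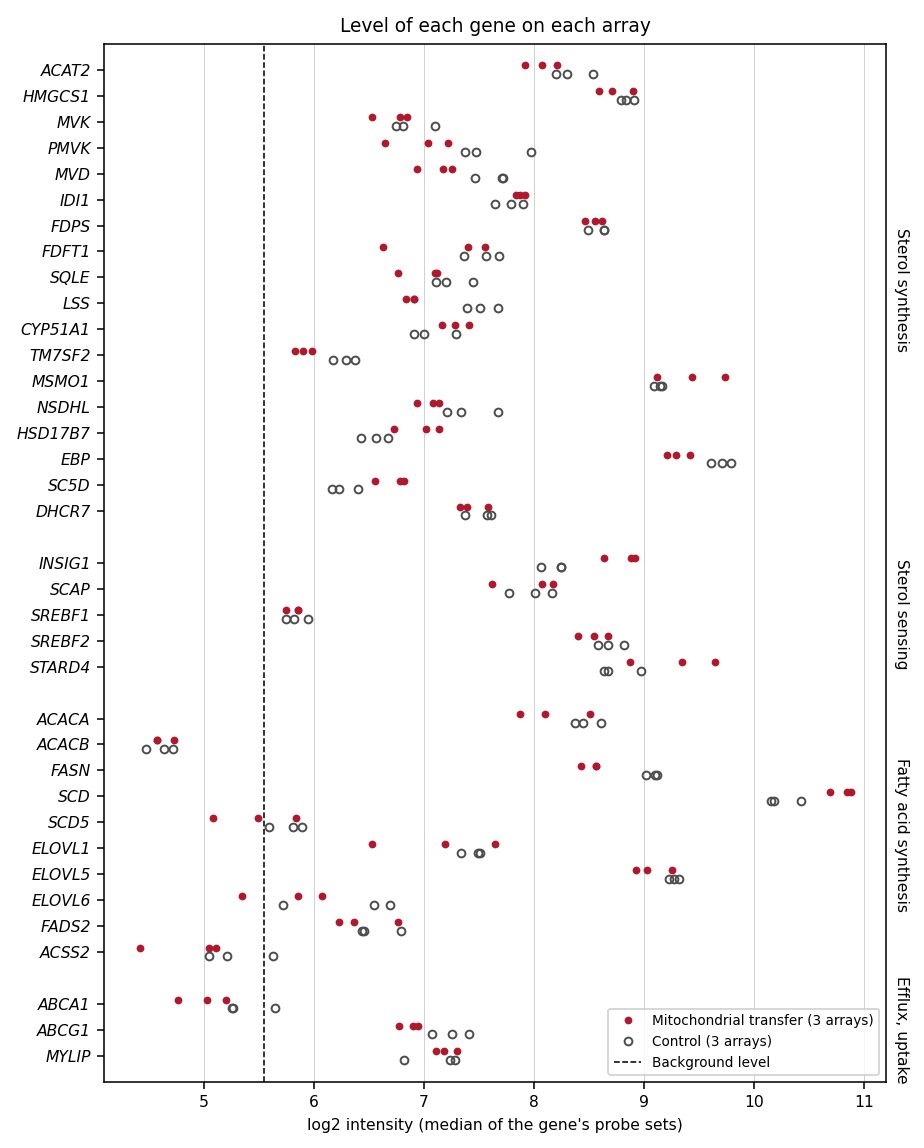
Median log2 intensity of the probe sets of each gene (horizontal axis) on the 3 mitochondrial transfer arrays (filled) and the 3 control arrays (open), with genes down the page in pathway order and the background of 5.55 as a dashed line. Levels are to be compared within a gene and not between genes, and the arrays of the groups do not overlap for SCD, INSIG1, FASN or LSS.

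Among the genes of sterol sensing, INSIG1 and the sterol carrier gene STARD4 had the largest positive differences, while the genes of the SREBP factors themselves differed little. INSIG1 encodes the protein that retains SCAP in the endoplasmic reticulum and is itself a classical SREBP target. Its log2 intensity was 8.63, 8.89 and 8.92 after transfer, against 8.06, 8.25 and 8.24 in control cells. All transfer arrays were higher than all control arrays, with means of 8.81 ± 0.15 and 8.19 ± 0.11 (SD, n = 3 each). The difference was 0.63 with a standard error of 0.15 (limma adjusted p = 0.215), and 8 of its 10 probe sets were higher. With trend and robust options its adjusted p was 0.0302.

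STARD4 encodes a soluble protein that carries cholesterol between membranes, and it had values of 8.88, 9.65 and 9.35 after transfer, against 8.68, 8.64 and 8.97 in control cells. Transfer replicate 1 fell within the range of the controls. The difference was 0.53 (standard error 0.22, limma adjusted p = 0.357), with 10 of 11 probe sets higher. SREBF2, the gene of the factor that mainly drives sterol synthesis, averaged 8.54 ± 0.14 after transfer and 8.69 ± 0.12 in control cells (SD, n = 3 each), a difference of −0.16 with a 95% confidence interval of −0.50 to 0.19. SREBF1, whose SREBP-1c form mainly drives fatty acid synthesis, averaged 5.82 ± 0.06 and 5.84 ± 0.10, close to background, with an interval of the difference of −0.34 to 0.31, although its brightest probe set alone had a difference of −0.77. SCAP had a difference of −0.03, with an interval of −0.48 to 0.42. These intervals do not show that the levels were alike.

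Promoter sequences were compared because these genes share SREBP and its partner NF-Y as known regulators, and because INSIG1 and SCD stood high while LSS stood low. RefSeq windows on GRCh38.p14, from 250 bases before to 50 bases after the start, were found for 32 of the 37 genes, and ACAT2, FDFT1, SQLE, FASN and ABCG1 had no entry. Where a listed gene had several windows, the first listed was read, while the shares of all genes counted every window. On both strands, TCACNCCAC, a form of the sterol regulatory element, was found in 1 of 32 windows, that of SREBF2, and in 1.13% of the 35116 windows of all genes. CCAAT, the box bound by NF-Y, was found in 21 of 32 windows (65.6%) and in 12 of 15 of the sterol synthesis genes, beside 34.6% of all windows. The E-box CACGTG was found in 6 of 32 windows (18.8%), beside 7.26%. CCAAT stood in all 4 windows of genes whose transfer arrays lay wholly above the controls and in 5 of 7 of those wholly below. A match here is a description of letters and not of binding.

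The windows of INSIG1 at chr7:155297628-155297927 (plus strand), SCD at chr10:100346983-100347282 (plus strand), LSS at chr21:46228725-46229024 (minus strand) and SREBF2 at chr22:41832855-41833154 (plus strand) are shown with every match of the 3 motifs in capitals, ATTGG being CCAAT on the opposite strand. No matches overlapped in these windows.
INSIG1: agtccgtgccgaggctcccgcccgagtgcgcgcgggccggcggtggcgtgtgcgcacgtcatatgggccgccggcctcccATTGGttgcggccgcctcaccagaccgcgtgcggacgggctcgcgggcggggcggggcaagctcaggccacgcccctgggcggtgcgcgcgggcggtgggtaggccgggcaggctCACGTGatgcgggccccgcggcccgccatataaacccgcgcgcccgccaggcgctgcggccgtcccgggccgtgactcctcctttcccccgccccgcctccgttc
SCD: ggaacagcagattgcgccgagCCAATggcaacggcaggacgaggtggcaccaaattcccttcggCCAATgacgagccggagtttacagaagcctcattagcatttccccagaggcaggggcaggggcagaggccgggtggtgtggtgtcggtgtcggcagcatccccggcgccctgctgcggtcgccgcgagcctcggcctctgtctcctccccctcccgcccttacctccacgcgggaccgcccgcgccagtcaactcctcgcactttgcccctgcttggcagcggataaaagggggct
LSS: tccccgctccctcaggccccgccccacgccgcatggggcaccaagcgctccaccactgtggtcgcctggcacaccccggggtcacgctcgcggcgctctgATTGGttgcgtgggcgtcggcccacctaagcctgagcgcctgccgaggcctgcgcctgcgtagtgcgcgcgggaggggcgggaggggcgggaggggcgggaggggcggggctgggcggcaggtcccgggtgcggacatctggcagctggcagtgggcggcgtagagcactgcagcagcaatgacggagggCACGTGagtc
SREBF2: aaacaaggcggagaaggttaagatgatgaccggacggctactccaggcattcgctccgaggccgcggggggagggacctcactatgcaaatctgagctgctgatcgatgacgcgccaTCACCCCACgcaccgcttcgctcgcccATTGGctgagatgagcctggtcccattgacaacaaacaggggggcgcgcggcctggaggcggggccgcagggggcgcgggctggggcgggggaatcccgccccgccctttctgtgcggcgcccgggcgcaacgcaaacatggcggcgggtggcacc

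In the sterol arm, 13 of 18 genes had negative and 5 positive differences, with a median of −0.21 on the log2 scale. All 18 were above background, where 65.5% of all genes had a negative difference. None passed the adjusted test, while 2 were higher and 5 lower at an unadjusted p under 0.05 in limma, against 3.24% and 11.4% of all genes above background. The largest negative differences were those of LSS, PMVK and MVD, and the largest positive ones were those of SC5D and HSD17B7. The median was closer to 0 under several alternatives, including −0.063 when each gene was read from its brightest probe set.

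The early steps of the mevalonate pathway held both small and larger differences. ACAT2 and HMGCS1, which make acetoacetyl-CoA and HMG-CoA, had differences of −0.28 and −0.11. PMVK encodes phosphomevalonate kinase, and its log2 intensity was 7.04, 7.22 and 6.65 after transfer, against 7.48, 7.38 and 7.97 in control cells. The arrays of the groups did not overlap, and all 7 probe sets were lower (difference −0.64, standard error 0.22, limma adjusted p = 0.299). MVD, the gene of the decarboxylase that follows, had values of 7.17, 7.26 and 6.94 after transfer, against 7.47, 7.72 and 7.71 in control cells. Here too the transfer arrays were all lower, with 9 of 12 probe sets lower (difference −0.51, standard error 0.16, limma adjusted p = 0.270). MVK, IDI1 and FDPS, which encode the kinase before PMVK, the isomerase and the synthase of farnesyl diphosphate, had differences between −0.17 and 0.10 with overlapping arrays.

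Among the genes from squalene to lanosterol, FDFT1 and SQLE had differences of −0.34 and −0.25 with overlapping arrays. Only 11 of the 21 probe sets of SQLE were lower, with a median difference over sets of −0.0091. For FDFT1, which encodes squalene synthase, transfer replicate 2 was low at 6.63, whereas the other 2 transfer arrays were 7.40 and 7.56. LSS encodes lanosterol synthase, which closes the sterol ring. Its values were 6.91, 6.84 and 6.91 after transfer, against 7.39, 7.51 and 7.67 in control cells. The gap between the groups was larger than the spread within either, with means of 6.89 ± 0.04 and 7.52 ± 0.14 (SD, n = 3 each). The difference was −0.63 (standard error 0.15, limma adjusted p = 0.202), and 21 of 26 probe sets were lower, although the brightest had a difference of 0.040. With trend and robust options the adjusted p was 0.0499.

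The steps from lanosterol to cholesterol were mixed. TM7SF2, a sterol reductase gene, had values of 5.83, 5.90 and 5.99 after transfer, against 6.18, 6.38 and 6.30 in control cells, which was not far above background (difference −0.38, limma adjusted p = 0.328). EBP, which encodes the sterol isomerase, had values of 9.29, 9.21 and 9.42 after transfer, against 9.71, 9.61 and 9.79 in control cells. Its arrays did not overlap and 11 of 12 probe sets were lower (difference −0.40, standard error 0.14, limma adjusted p = 0.316), but the brightest one had a difference of only −0.044. NSDHL, a dehydrogenase gene of sterol C4 demethylation, had a difference of −0.36 with arrays that did not overlap (limma adjusted p = 0.408). Of its 11 probe sets 10 were lower, while the remaining one was higher by 2.74 and was not called.

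SC5D, which encodes the sterol C5 desaturase, had values of 6.56, 6.82 and 6.78 after transfer, against 6.17, 6.40 and 6.23 in control cells. The transfer arrays were all higher, with 9 of 13 probe sets higher (difference 0.46, standard error 0.15, limma adjusted p = 0.289). The median difference over the probe sets of SC5D was smaller, at 0.20. HSD17B7, the ketoreductase gene of the same C4 demethylation, had a difference of 0.40 with arrays that did not overlap (limma adjusted p = 0.352). It rested on 5 probe sets, 3 of them higher, its brightest one had the opposite sign at −0.088, and a closely similar pseudogene is known. MSMO1 encodes the methylsterol oxidase, and all 11 of its probe sets were higher, but its transfer values of 9.74, 9.12 and 9.44 reached into the control values of 9.16, 9.10 and 9.14 (difference 0.30, limma adjusted p = 0.509). CYP51A1, the lanosterol demethylase gene, had a difference of 0.22 on 4 probe sets, a further 11 naming other genes as well. DHCR7, which encodes the last reductase, had a difference of −0.09.

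The fatty acid arm had 8 negative and 2 positive differences among 10 measured genes, with a median of −0.30. Among its 8 genes above background there were 7 and 1, with the same median. Over all genes 55.2% were negative, and 65.5% of those above background. At an unadjusted p under 0.05 in limma, 1 of the 10 was higher and 1 lower, against 5.27% and 8.14% of all genes. The arm's median turned to 0.065 when each gene was read from its brightest probe set and was −0.058 on probe sets above background. FASN and SCD, at the middle and the end of the arm, differed in opposite directions. FASN encodes the enzyme that builds palmitate. Its log2 intensity was 8.57, 8.43 and 8.57 after transfer, against 9.02, 9.11 and 9.10 in control cells. The groups were well separated, with means of 8.52 ± 0.08 and 9.08 ± 0.05 (SD, n = 3 each), and 32 of 33 probe sets were lower. The difference was −0.56 (standard error 0.14, limma adjusted p = 0.223), and with trend and robust options the adjusted p was 0.0284. On the brightest probe set the difference was −0.19.

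SCD encodes the stearoyl-CoA desaturase, which makes oleate, and it had values of 10.69, 10.85 and 10.88 after transfer, against 10.15, 10.18 and 10.42 in control cells. All transfer arrays were higher, with means of 10.81 ± 0.10 and 10.25 ± 0.15 (SD, n = 3 each), and all 9 probe sets were higher. The difference was 0.55 (standard error 0.15, limma adjusted p = 0.241), and with trend and robust options the adjusted p was 0.0174. On the brightest probe set the difference was 0.27.

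ACACA, which encodes the carboxylase that commits acetyl-CoA to this arm, had values of 8.51, 8.10 and 7.88 after transfer, against 8.61, 8.45 and 8.37 in control cells. Transfer replicate 1 lay within the controls, and 37 of 49 probe sets were lower (difference −0.32, limma adjusted p = 0.504), with a difference of 0.019 on the brightest. ELOVL6, which encodes the elongase of palmitate, had a difference of −0.56 that rested on a wide spread. Its values were 5.86, 6.08 and 5.35 after transfer, against 5.72, 6.70 and 6.55 in control cells (limma adjusted p = 0.442), and 7 of 13 probe sets were lower, with a difference of 0.092 on the brightest. The median difference over the probe sets of ELOVL6 was only −0.083. SCD5, the second desaturase gene, had values of 5.50, 5.09 and 5.84 after transfer, against 5.59, 5.89 and 5.81 in control cells, so that the transfer mean was under background. ELOVL1 and ELOVL5, elongase genes of saturated and polyunsaturated chains, had differences of −0.32 and −0.20, and for ELOVL1 transfer replicate 3 was low at 6.53, with 7.65 and 7.19 on the other 2. FADS2, the delta-6 desaturase gene, had a difference of −0.11.

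ACSS2, the gene of the enzyme that makes acetyl-CoA from acetate, and ACACB, the carboxylase gene tied to fatty acid oxidation, had medians under background. The values of ACSS2 were 5.05, 5.12 and 4.42 after transfer, against 5.05, 5.63 and 5.22 in control cells (limma adjusted p = 0.459). On its brightest probe set ACSS2 had a difference of 0.57, opposite in sign to that of the median.

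Of the genes of sterol efflux and lipoprotein uptake, ABCG1 encodes an exporter of cholesterol to high-density lipoprotein. It had values of 6.77, 6.95 and 6.90 after transfer, against 7.25, 7.07 and 7.41 in control cells, with no overlap (difference −0.37, standard error 0.15, limma adjusted p = 0.357). Only 12 of its 20 probe sets were lower, with a median difference over sets of −0.077, and the brightest had the opposite sign at 0.22. ABCA1, the other exporter gene and like ABCG1 a target of the LXR sterol receptors, had a median under background with values of 4.77, 5.03 and 5.20 after transfer, against 5.26, 5.26 and 5.65 in control cells (limma adjusted p = 0.404).

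MYLIP encodes a ubiquitin ligase that removes lipoprotein receptors, and it was the gene of the one listed probe set that passed the limma test over all probe sets. On all its probe sets together it averaged 7.20 ± 0.10 after transfer and 7.12 ± 0.25 in control cells (SD, n = 3 each), a difference of 0.08. On the called probe set the values were 10.20, 10.42 and 10.08 after transfer, against 7.46, 7.72 and 7.16 in control cells, a rise of 2.79 (limma adjusted p = 0.0395). Its 9 other probe sets had a median difference of −0.058, with 4 higher and 5 lower. They were not all close to that median, and their differences ranged from −1.56 to 1.12. No other of the 669 listed probe sets was called, and over all probe sets 0.0652% were called higher and 0.00424% lower. At an unadjusted p under 0.05 in limma, MYLIP as a gene did not pass either. The call of this probe set was lost whenever 1 array of either group was left out.

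**Figure D2:**
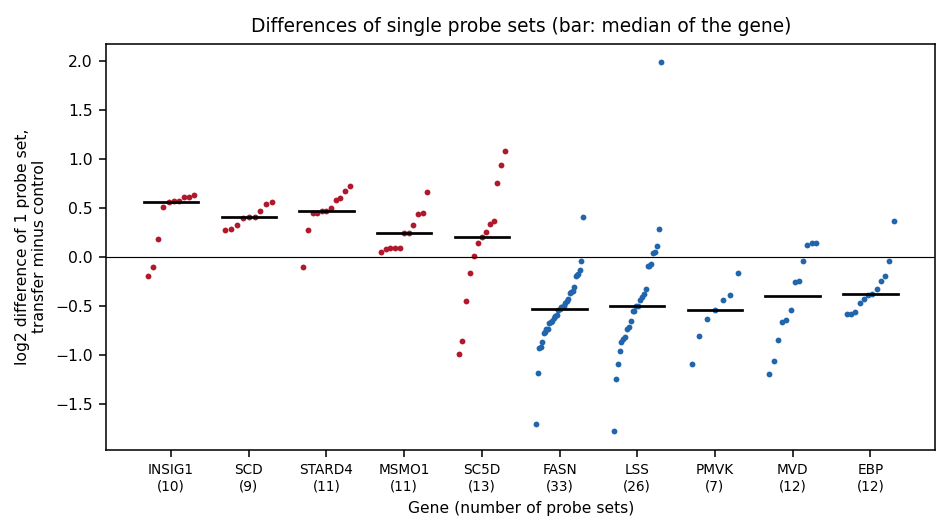
Log2 difference of every single probe set, transfer minus control (vertical axis), for 5 genes with positive and 5 with negative differences, sorted by value within each gene, with the median as a bar. These genes were picked for display and not by a fixed rule. HSD17B7 (difference 0.40, 3 of 5 probe sets higher) and ELOVL6 (difference −0.56, 7 of 13 lower) are among those not shown. All probe sets of SCD and MSMO1 lie above 0, all of PMVK lie below it, and 32 of 33 of FASN lie below it.

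Agreement between probe sets was read as a further description. Among the 35 listed genes with at least 5 probe sets, 4 had at least 80% of them higher (MSMO1, INSIG1, STARD4 and SCD), beside 5.52% of such genes in the whole series. There were 8 with at least 80% lower (ACAT2, PMVK, FDFT1, LSS, NSDHL, EBP, FASN and ELOVL1), which was 22.9%, beside 16.2% in the whole series. Of the 669 probe sets 62.9% were lower and the others higher, beside 56.2% lower and 43.8% higher of all. For genes above background, 65.1% of the probe sets of listed genes were lower, beside 61.4% of those of all genes. The counts of genes with agreeing probe sets were not matched for brightness in this way. Probe sets of a gene share its RNA and are not replicates.

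**Figure D3:**
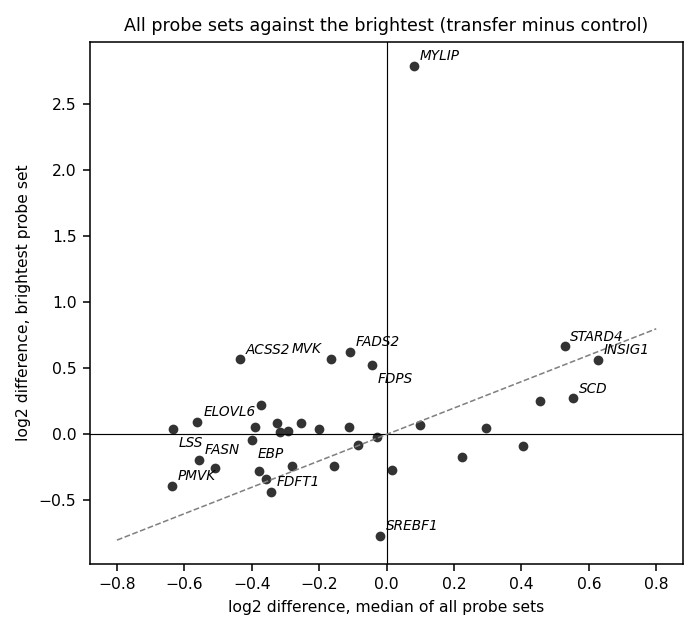
Log2 difference, transfer minus control, of each of the 36 genes on the median of all its probe sets (horizontal axis) and on its brightest probe set (vertical axis), with the line of equality dashed. MYLIP stands furthest out at 2.79 on its brightest probe set, while INSIG1 and STARD4 lie near the line. Other genes lie far from the line, such as SREBF1 (−0.018 on the median, −0.77 on the brightest) and MVK (−0.17 and 0.57), and many change sign.

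Another 28 genes of the same pathways, outside the list, were counted for comparison, and none passed the adjusted test. At an unadjusted p under 0.05 in limma, 3 were higher and 4 lower, against 5.27% and 8.14% of all genes. Their differences were positive for 14 and negative for 14, against 44.8% and 55.2%. The smallest p-values were those of NR1H2, MBTPS1 and INSIG2. NR1H2 encodes the sterol receptor LXR-beta, and it had values of 6.37, 6.18 and 6.05 after transfer, against 6.56, 6.74 and 6.90 in control cells (difference −0.53, limma adjusted p = 0.270). MBTPS1, the gene of the first protease that cleaves SREBP, had values of 7.29, 7.12 and 7.59 after transfer, against 7.90, 7.91 and 7.67 in control cells (difference −0.49, limma adjusted p = 0.306). INSIG2, the relative of INSIG1 that does not depend on SREBP in the same way, had values of 7.41, 7.67 and 7.86 after transfer, against 7.23, 7.19 and 7.14 in control cells. Its arrays did not overlap, all 10 of its probe sets were higher, and the difference was 0.46 (standard error 0.16, limma adjusted p = 0.309). INSIG2 passed with the mean of its probe sets (difference 0.81, limma adjusted p = 0.0381) and on its brightest probe set (difference 1.12, limma adjusted p = 0.0355). ACLY, the citrate lyase gene that supplies cytosolic acetyl-CoA, is named here after its values were seen, as it was the one gene of these 28 called with trend and robust options. It had values of 10.47, 10.33 and 10.22 after transfer, against 10.69, 10.77 and 10.75 in control cells, with all 23 probe sets lower (difference −0.39, limma adjusted p = 0.319, and 0.0493 with those options).

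Beside these results stand facts of the whole series. Across genes, Pearson's r was 0.966 between transfer arrays, 0.977 to 0.979 between control arrays and 0.965 to 0.969 between the groups. All 10 markers of NK cells were above background, with mean levels of 9.33 to 9.43 on transfer arrays and 9.55 to 9.62 on control arrays, and none of them passed the adjusted test. The transfer arrays lay wholly below the controls for 5 and wholly above for 1, against 20.1% and 6.41% of genes above background. Of 9 hepatocyte markers 2 were above background, with mean levels of 4.74 to 5.02 after transfer and 4.80 to 5.25 in control cells, and the median of the albumin probe sets was under it. The 5 epithelial markers, 2 of them above background, ranged from 5.29 to 5.36 after transfer and from 5.01 to 5.48 in control cells. The 3 monocyte markers, 1 of them above background, ranged from 5.03 to 5.29 after transfer and from 4.56 to 4.96 in control cells, and both measured B cell markers were under it. The median difference of all genes moved with brightness, being 0.13 in the dimmest of 10 equal groups of genes and −0.13 in the brightest. The part of marker levels and of brightness in the differences above was not tested.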

How the data were processed

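Per the labels, total RNA was hybridized to Affymetrix whole-transcript arrays, and the deposited values are on the log2 scale, the authors having run RMA in Affymetrix Power Tools (background correction, quantile normalization and summary by probe set). Versions, build and filters are not given in the sources used here. Of 352859 probe sets, 13116 named several genes and 80519 none, and both were left out. Symbols were updated through RefSeq (20529 current, 1726 updated, 65 unmatched). A gene's value was the median of its probe sets, because the choice of the brightest one let single probe sets stand for a gene. This main setting was chosen after earlier results of these data had shown rises of single brightest probe sets. The transfer and control arrays were compared with limma 3.58.1 (R 4.3.3; the tables were read with data.table, version 1.17.8), using lmFit and eBayes at default options, two-sided, with Benjamini-Hochberg adjustment over all 22260 genes, or all 259224 probe sets, at 0.05. In a simulation, these settings recovered 39 of 100 genes given a log2 change of 1, and 85 of 100 given a change of 2. There were 11 false calls among 22060 unchanged genes. Changes smaller than 1, the size of the differences of the listed genes, were not simulated. The lack of a call therefore does not show that a gene was unchanged. Alternatives were the brightest probe set, the mean, probe sets above 6.15, 3 normalizations, a filter on dim genes, trend and robust options, the replicate number as a block, each array left out and the methods' Student's t-test.

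The members and lists were chosen with earlier results of these data known. Values per array are given for called genes and for the 6 smallest p in each synthesis arm, 2 in the other groups and 3 among related genes, with MSMO1 and single low arrays added after their values were seen. The number of arrays, 3 in each group, limits the precision.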

Additional observations from a re-analysis of the deposited data

How the results depend on the processing

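With the main settings 14 genes of the whole series were higher and 2 lower. The counts were 388 and 52 with the brightest probe set, 53 and 18 with their mean, and 155 and 39 with probe sets above background. Among genes above background they were 58 and 43. Of 22260 genes, trend and robust options called 96 higher and 233 lower. By the unadjusted t-test the counts were 962 and 1940 of 22260 genes, with 0 and 0 after adjustment. They were 48 and 15 when probe sets were centred before the median was taken, which was chosen after seeing the data. With arrays centred on their medians 1 was lower. Without 1 array, 1 to 9 were higher and 0 to 1 lower. With a replicate block 1 was higher and 0 were lower. Arrays of the same number shared only that number, with correlations of their deviations of 0.030, 0.0020 and −0.010.

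The counts of listed genes are to be read beside those of all genes under the same setting, given above. Of the 36 listed genes, 1 was called higher with the brightest probe set (MYLIP, 2.79). With trend and robust options 2 were higher (INSIG1, 0.63, and SCD, 0.55) and 2 lower (FASN, −0.56, and LSS, −0.63). By the unadjusted t-test 4 of the 36 listed genes were higher and 6 lower. Of their probe sets, trend and robust options called 3 higher and 2 lower, 0 were called with a replicate block, and 0 without any 1 array, against 1 with the main settings. Calls over all probe sets were counted with the main settings only. The 3 and 2 therefore have no share of all probe sets beside them and are not a result about these genes. Of the 28 related genes, 1 was higher with the brightest probe set and 1 with the mean, 1 was lower with trend and robust options, and 1 was higher and 4 lower by the unadjusted t-test.

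The median of the sterol arm was −0.063 with the brightest probe set, −0.11 with the mean, −0.12 with probe sets above background, −0.16 with quantile normalization, −0.14 with cyclic loess, −0.080 with centred probe sets and −0.25 to −0.14 without 1 array. That of the fatty acid arm was 0.065, opposite in sign, with the brightest probe set, −0.17 with the mean, −0.058 with probe sets above background, −0.16 with centred probe sets and −0.40 to −0.15 without 1 array. Of the fits without 1 array, that without transfer replicate 3 gave the medians closest to 0 in both arms.

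No listed gene was called with the main settings, and the differences of several changed sign. With the brightest probe set the differences of opposite sign were 0.059 for HMGCS1, 0.57 for MVK, 0.52 for FDPS, 0.088 for SQLE, 0.040 for LSS, −0.17 for CYP51A1, −0.088 for HSD17B7, 0.019 for ACACA, −0.27 for ACACB, 0.025 for SCD5, 0.085 for ELOVL1, 0.045 for ELOVL5, 0.092 for ELOVL6, 0.63 for FADS2, 0.57 for ACSS2, 0.053 for ABCA1 and 0.22 for ABCG1. With probe sets above background they were 0.075 for HMGCS1, −0.15 for CYP51A1, 0.091 for SREBF1, 0.22 for SCD5, 0.058 for FADS2, 0.48 for ACSS2 and 0.050 for ABCA1. With the mean they were −0.15 for IDI1, 0.031 for FDPS and −0.030 for ACACB, and with centred probe sets −0.061 for IDI1 and −0.15 for ACACB. After quantile normalization they were 0.028 for FDPS, 0.043 for SCAP and 0.013 for SREBF1, after cyclic loess 0.047 for FDPS, 0.0068 for DHCR7, 0.070 for SCAP, 0.025 for SREBF1 and −0.034 for ACACB, and with centred arrays 0.013 for SCAP and 0.022 for SREBF1. Without 1 array the differences ranged from −0.14 to 0.14 for SCAP, −0.064 to 0.036 for SREBF1, −0.052 to 0.068 for ACACB, −0.26 to 0.0087 for FADS2 and −0.064 to 0.17 for MYLIP. The causes were not tested. Of the genes with positive differences, INSIG1, SCD, STARD4, SC5D and MSMO1 kept their sign under all these alternatives. Of those with negative differences, FASN, PMVK, MVD, EBP, ACAT2, FDFT1, TM7SF2, NSDHL and SREBF2 did so.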
